A study of Mus musculus with 11 samples.

Results

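The genes described here are those of MHC class I and antigen presentation, namely H2-K1, H2-D1, B2m, Tap1, Tap2, Tapbp and Irf1. They were taken by symbol and make up 7 of the 18194 genes that had at least 1 probe set of their own on the array. The platform annotation gave them 23 probe sets that name 1 gene and no other, and each is described apart because probe sets of H2 genes cross-react. The 11 Affymetrix Mouse Genome 430 2.0 arrays measured mRNA of cells of the oligodendrocyte lineage in culture, in 3 groups given here with their labelled genotypes. CKO oligodendrocytes (n = 3) were MRF fl/fl; Olig2 wt/cre, so that both alleles of the myelin transcription factor gene Myrf, labelled MRF, can be recombined by a Cre expressed from the Olig2 locus. Control oligodendrocytes (n = 4) were MRF wt/fl; Olig2 wt/cre littermates, which also carry the Cre and 1 floxed allele. OPCs (n = 4), the oligodendrocyte progenitor cells, were labelled control with no genotype given. All cells came from brains at postnatal day 7, were depleted of microglia on the lectin BSL1 and selected by antibody to PDGFR-alpha. Both oligodendrocyte groups were cultured for 4 days without PDGF and with 40 ng/ml of the thyroid hormone T3, whereas OPCs were kept for 6 days in 10 ng/ml PDGF-AA. Whether replicates were separate cultures or animals is not in the labels, and p-values cover only the variation among these arrays, part or all of which may be technical.

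MHC class I molecules present peptides from inside the cell to CD8+ T cells. A heavy chain, encoded in mice by H2-K1 and H2-D1 among others, is folded with the invariant light chain beta-2-microglobulin (B2m). The transporter formed by TAP1 and TAP2 carries peptides from the cytosol into the endoplasmic reticulum, where tapasin (Tapbp) holds the transporter and the empty heavy chain together during loading. IRF1 is a transcription factor that is induced by interferon-gamma and binds regulatory elements of class I genes. In the healthy brain class I is low in oligodendrocytes, and interferon-gamma raises it in cultured ones.

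The promoters of both heavy chain genes, the light chain gene and Irf1 are printed because these members differ in how they moved between groups. Each window holds the 250 bases before the annotated start, 5′ to 3′ in the direction of the gene, from RefSeq on GRCm38.p6. Tap1 and Tapbp also had a window, and Tap2 is named only. Capitals mark matches to the core of interferon regulatory factor elements, AANNGAAA, and to the NF-kB consensus, both searched on either strand. The windows lie at chr17:34000348-34000597 on the minus strand for H2-K1, of whose 2 annotated starts the first is shown, and at chr17:35262844-35263093 on the plus strand for H2-D1. That of B2m lies at chr2:122147437-122147686 and that of the first of 2 Irf1 starts at chr11:53769764-53770013, both on the plus strand.
H2-K1: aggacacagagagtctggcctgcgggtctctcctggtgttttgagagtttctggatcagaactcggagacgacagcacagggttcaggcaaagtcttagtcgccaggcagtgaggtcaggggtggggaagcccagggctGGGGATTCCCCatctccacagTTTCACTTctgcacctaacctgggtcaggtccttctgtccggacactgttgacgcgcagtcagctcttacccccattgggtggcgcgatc
H2-D1: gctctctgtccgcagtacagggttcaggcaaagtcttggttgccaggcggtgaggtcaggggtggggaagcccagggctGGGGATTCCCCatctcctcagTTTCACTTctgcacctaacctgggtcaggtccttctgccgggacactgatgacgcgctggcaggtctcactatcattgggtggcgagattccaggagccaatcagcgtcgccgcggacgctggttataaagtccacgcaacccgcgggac
B2m: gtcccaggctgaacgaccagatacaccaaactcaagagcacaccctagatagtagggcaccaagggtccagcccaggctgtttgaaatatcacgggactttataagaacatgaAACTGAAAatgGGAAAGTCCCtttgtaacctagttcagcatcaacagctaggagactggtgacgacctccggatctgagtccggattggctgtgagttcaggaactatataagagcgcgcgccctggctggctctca
Irf1: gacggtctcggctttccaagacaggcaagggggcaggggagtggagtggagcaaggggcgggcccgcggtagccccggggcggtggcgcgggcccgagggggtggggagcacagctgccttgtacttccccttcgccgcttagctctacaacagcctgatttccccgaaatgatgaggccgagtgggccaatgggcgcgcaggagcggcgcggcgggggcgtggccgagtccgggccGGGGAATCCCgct

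In H2-K1 and H2-D1 an NF-kB match that reads on both strands, as 4 overlapping matches, stands upstream of an IRF core on the minus strand. In H2-K1 the IRF core lies at -90 to -83 from the start and in H2-D1 at -150 to -143. The windows of H2-K1 and H2-D1 aligned over 190 bases, of which 166 (87.4%) were identical, and they share an unbroken stretch of 47 bases that spans the NF-kB match. B2m has the same motif pair in the other order, with the IRF core at -137 to -130 and NF-kB at -126 to -117. The first Irf1 window has an NF-kB match at -13 to -4 and no IRF core, and the windows of Tap1 and Tapbp have neither. Of 32851 such windows of mouse genes, 21.3% hold an IRF core, 7.25% an NF-kB match and 1.11% both. A match describes letters and is not a shown binding site.

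Of the 23 probe sets, 12 passed the filter on dim values, a signal of 200 or more on 3 or more arrays, and entered the comparisons. They were 3 of 4 for H2-K1, 3 of 9 for H2-D1, both for B2m, both for Tapbp and the single ones for Tap2 and Irf1. The 4 of Tap1 did not pass. Of the 12, 3 reached that signal on no OPC array, of which the Tap2 probe set did so on CKO arrays only, so that these could hardly pass without being higher in oligodendrocytes, and counts over the 12 are descriptions. The suffix x_at, which the maker gives to probe sets whose probes can bind other transcripts, is carried by 12 of the 23, including every H2-K1 probe set and each H2-D1 probe set that passed. The reference table lists H2-D1 as a synonym of H2-K1 and H2-K1 as a synonym of H2-D1, so a probe set's H2 name is the annotation's and not proof of the transcript. The labels give no H-2 haplotype.

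Trimmed means were 500 on all 11 arrays, as the authors scaled them, and 15100 to 17130 probe sets per array stood at 200 or more. Myrf had signals of 1904.4 to 2848.6 in CKO oligodendrocytes, against 6215 to 7517.4 in control oligodendrocytes. It had 752.1, 6848.4, 1135 and 970.5 in OPC replicates 1 to 4, so OPC replicate 2 went against its group. That array also correlated with the other OPC arrays at 0.816 to 0.909, where the CKO arrays correlated at 0.958 to 0.970 and the control arrays at 0.937 to 0.976. Without it 11 member probe sets were called higher and 1 lower in control oligodendrocytes against OPCs, and 8 higher in CKO oligodendrocytes against OPCs, the same counts as with it, and no difference of a member moved by more than 0.24 on the log2 scale. OPC replicates 1 and 4 had a 5′ to 3′ Gapdh ratio of 0.332 and 0.120, against 1.15 to 1.41 on the other arrays. For members with their 2 lowest or 2 highest OPC signals on these arrays, the log2 differences without both are given beside the results. In RNA of whole cultures, fewer cells of a type and less RNA per cell cannot be told apart.

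Differences are on the log2(signal + 16) scale with their standard error (SE), and adjusted p-values come from limma over all 18568 probe sets kept. Between CKO and control oligodendrocytes 1 of the 12 member probe sets passed the adjusted p of 0.05 and was lower, against a background of 2.34% of all probe sets called higher and 3.14% called lower. The arrays of these groups did not overlap for 2 members that were higher and 4 that were lower, against 15.7% and 13.4% of all probe sets. Of the 2 higher ones, Tap2 passed the filter on its CKO arrays only, which by itself placed them above the control arrays. The median difference over the 12 was -0.00, and over all probe sets it was 0.03. The 4 lower ones were all heavy chain probe sets, 1 named H2-K1 and 3 named H2-D1.

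H2-K1 probe set 1451931_x_at had signals of 688.8, 836.7 and 671.9 in CKO oligodendrocytes, against 1658.4, 1247.2, 1980.1 and 1711.5 in control oligodendrocytes. OPCs had 1079.6, 873.9, 1086.6 and 629.6 on the same probe set. Every CKO array lay below every control array, and the CKO and OPC arrays overlapped. H2-K1 on 1451931_x_at fell 2.21-fold in CKO against control oligodendrocytes (log2 difference -1.14 ± 0.23, adjusted p = 0.0129). The call ended without CKO replicate 1, with adjusted p = 0.0641, and without CKO replicate 3, with adjusted p = 0.0655, where the differences were -1.10 and -1.08.

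A second H2-K1 probe set did not share that pattern. On 1425336_x_at CKO oligodendrocytes had 1426.5, 2334.1 and 1634.5, against 1523.6, 1473.4, 1458.3 and 1753.6 in control oligodendrocytes and 589.1, 369.0, 649.2 and 359.8 in OPCs. CKO and control arrays overlapped and both lay above all OPC arrays. The CKO minus control difference was 0.18 ± 0.25, with a 95% interval of -0.36 to 0.73 and adjusted p = 0.775. The third, 1427746_x_at, had 166.6, 319.6 and 186.4 in CKO oligodendrocytes, against 208.9, 173.1, 145.7 and 296.6 in control oligodendrocytes and 74.9, 45.2, 94.0 and 31.7 in OPCs. It followed 1425336_x_at, with a CKO minus control difference of 0.10 ± 0.36 and an interval of -0.69 to 0.90 (adjusted p = 0.927). A probe set annotated to both H2-K1 and H2-D1, which is no member, had 164.6, 305 and 186.8 in CKO oligodendrocytes, against 208.1, 169.5, 144.4 and 211.7 in control oligodendrocytes, close to these.

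The disagreement was measured within arrays, where scaling cancels. The log2 signal of 1451931_x_at minus that of 1425336_x_at ran from -1.46 to -1.03 on CKO arrays, against -0.24 to 0.44 on control arrays. The mean difference between groups was -1.32, and the arrays did not overlap (exact permutation test, two-sided, p = 0.0571, the smallest that 3 against 4 arrays allow, adjusted p = 0.196 over 24 tests of 8 pairs in 3 comparisons). The same difference was 0.73 to 1.21 on OPC arrays. It was lower in control oligodendrocytes than in OPCs by a mean of 0.82 (log2 difference -0.82, exact p = 0.0286, adjusted p = 0.196). The 2 H2-K1 probe sets 1425336_x_at and 1427746_x_at changed unequally by only 0.08 between CKO and control oligodendrocytes (exact p = 0.629). Neither 3 against 4 arrays nor 4 against 4, whose smallest exact p is 0.0286, could pass after adjustment over 24 tests, so these p-values show nothing about agreement between probe sets.

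H2-D1 probe set 1425545_x_at had 1324.8, 1788.3 and 1632.3 in CKO oligodendrocytes, against 2526.8, 2018.0, 3053.0 and 3029.5 in control oligodendrocytes and 1246.2, 1001.8, 1358.4 and 789.3 in OPCs. The CKO arrays lay below all control arrays. Its CKO minus control difference was -0.73 ± 0.23 and missed the threshold (adjusted p = 0.0924). With the replicate number as a block, in which the OPC arrays and control replicate 4 drop out, it was -0.66 and passed (adjusted p = 0.0480). With the 2 groups alone and no block it passed as well (adjusted p = 0.0274). The other 13 of 15 alternatives left it short of the threshold, with adjusted p up to 0.306.

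H2-D1 probe set 1451784_x_at had 1257.7, 2039.1 and 1977.6 in CKO oligodendrocytes, against 2528.8, 2055.0, 2792.8 and 2919.2 in control oligodendrocytes and 696.5, 936.7, 1290.1 and 469.2 in OPCs. The highest CKO array came close to the lowest control array without reaching it. The difference was -0.57 ± 0.31 (adjusted p = 0.369). H2-D1 probe set 1451683_x_at had 165.7, 253.3 and 261.9 in CKO oligodendrocytes, against 408.5, 330.4, 700.3 and 791.6 in control oligodendrocytes and 157.9, 250, 178.8 and 115.2 in OPCs. CKO and OPC arrays overlapped and the control arrays stood above both. Its CKO minus control difference was -1.18 ± 0.34 with adjusted p = 0.0711, and -0.98 with adjusted p = 0.0306 under the replicate block. The probe set also passed with the 2 groups alone, under quantile normalization and without control replicate 2 (adjusted p = 0.0384, 0.0403 and 0.0449). Under the other 11 of 15 alternatives it missed the threshold, with adjusted p up to 0.259.

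**Figure D1:**
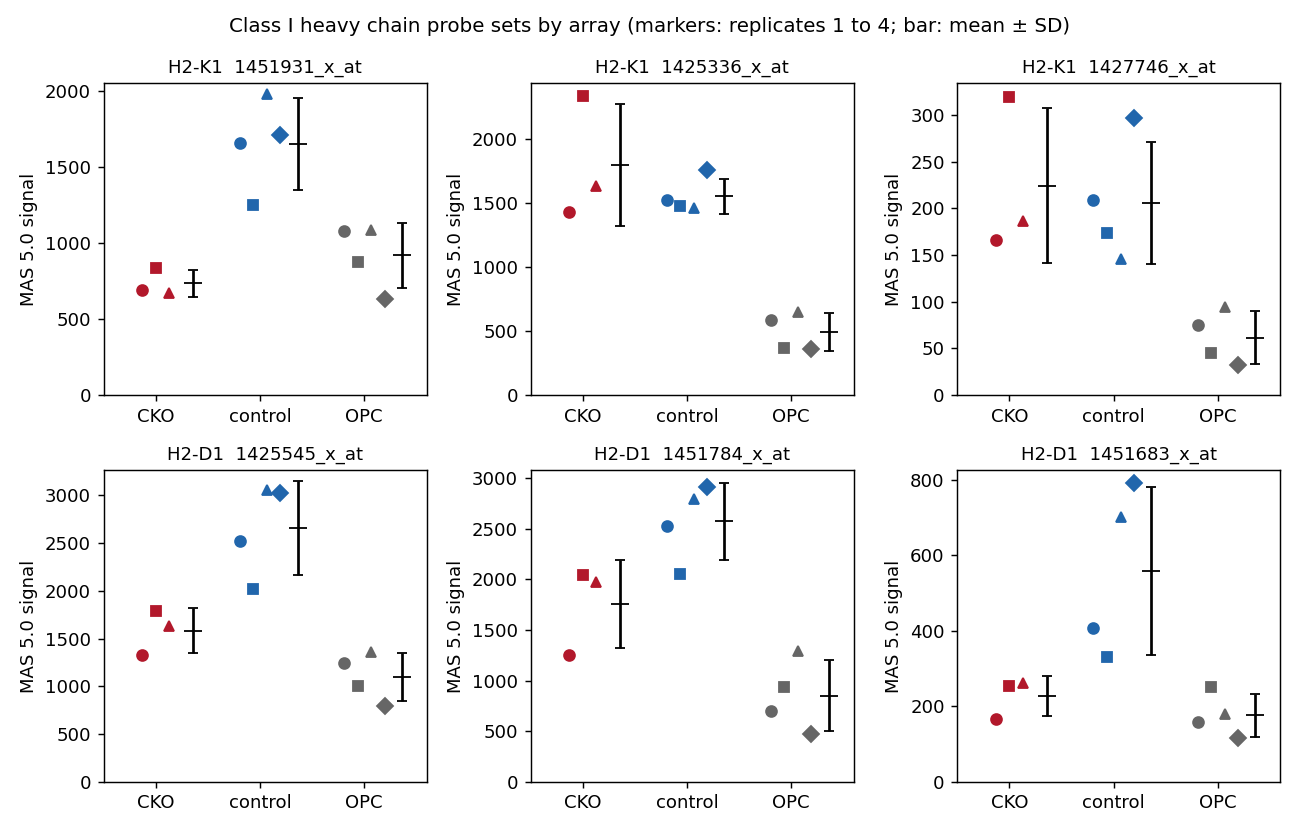
MAS 5.0 signal (linear axis from 0) of the 6 heavy chain probe sets that passed the filter, by array, for CKO oligodendrocytes, control oligodendrocytes and OPCs, with mean ± SD bars. The H2-K1 probe set 1451931_x_at and the 3 H2-D1 probe sets lie lower on every CKO array than on any control array, while the other 2 H2-K1 probe sets overlap between these groups.

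The heavy chain probe sets did not divide by gene name between CKO and control oligodendrocytes, where 1 named H2-K1 and 3 named H2-D1 were lower without overlap and 2 named H2-K1 overlapped. Over the 11 arrays the log2 signal of H2-K1 1451931_x_at correlated at 0.33 and 0.38 with 1425336_x_at and 1427746_x_at, which correlated with each other at 0.97. With the 3 H2-D1 probe sets 1425545_x_at, 1451784_x_at and 1451683_x_at it correlated at 0.82, 0.65 and 0.83. The H2-D1 probe sets also correlated with the other H2-K1 probe sets, at 0.79, 0.86 and 0.59 with 1425336_x_at and at 0.80, 0.87 and 0.61 with 1427746_x_at. These are descriptions over 11 arrays in 3 groups that share their scaling.

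Of the dim H2-D1 probe sets, 1426324_at came nearest to the filter. It had 42.4, 68.3 and 62.4 in CKO oligodendrocytes, against 114.0, 73.3, 172.5 and 184.2 in control oligodendrocytes and 144.6, 42.7, 88.1 and 77.0 in OPCs. Its CKO arrays also lay below all control arrays, without a test. The other 5 dim H2-D1 probe sets and the dim H2-K1 one stayed at 64.8 or less on every array.

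B2m, the light chain, was high on both of its probe sets in both oligodendrocyte groups. On 1449289_a_at CKO oligodendrocytes had 2523.2, 3442.4 and 2839.3, against 2704.1, 2939.3, 3606.5 and 4125.9 in control oligodendrocytes and 1336.2, 1377.4, 1428.4 and 883.9 in OPCs. On 1452428_a_at CKO oligodendrocytes had 2391.4, 3021.3 and 2974.0, against 2288.4, 2926.2, 3097.0 and 3938.6 in control oligodendrocytes and 687.0, 1368.4, 1183.2 and 489.9 in OPCs. CKO and control arrays overlapped on both probe sets, and every oligodendrocyte array lay above every OPC array. The CKO minus control differences of B2m were -0.18 ± 0.22 (interval -0.66 to 0.30, adjusted p = 0.741) and -0.11 ± 0.32 (interval -0.82 to 0.59, adjusted p = 0.909).

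Tapasin was measured by 2 probe sets. Tapbp on 1421812_at had 949.4, 1194.2 and 1156.1 in CKO oligodendrocytes, against 880.3, 885.8, 835.0 and 984.0 in control oligodendrocytes and 141.6, 265.4, 231.3 and 144.0 in OPCs. On 1450378_at it had 231.6, 336.9 and 167.5 in CKO oligodendrocytes, against 292.1, 231.3, 116.6 and 182.4 in control oligodendrocytes and 11.6, 53.7, 55.8 and 7.1 in OPCs. The oligodendrocyte groups overlapped and the OPC arrays lay below all others on both. The CKO minus control differences were 0.29 ± 0.23 (interval -0.22 to 0.79, adjusted p = 0.575) and 0.25 ± 0.47 (interval -0.77 to 1.28, adjusted p = 0.843).

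The peptide transporter was dim. Tap2 on 1453913_a_at had 209.8, 268.3 and 238.6 in CKO oligodendrocytes, against 182.1, 176.9, 95.8 and 193.7 in control oligodendrocytes and 118.2, 60.0, 46.5 and 69.9 in OPCs. Every CKO array lay above every control array, which passing the filter on the CKO arrays alone had already fixed, so that order is no result. The difference of 0.55 ± 0.32 missed the threshold (interval -0.15 to 1.25, adjusted p = 0.405). Tap1 on its brightest probe set, 1416016_at, had 93.2, 103.2 and 104.9 in CKO oligodendrocytes, against 96.8, 83.2, 87.5 and 103.8 in control oligodendrocytes and 182.8, 83.4, 124.1 and 173.0 in OPCs. The groups overlapped there, and the 3 other Tap1 probe sets stayed at 35.3 or less on every array.

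Irf1, the interferon-induced activator, was kept on 1 probe set. On 1448436_a_at CKO oligodendrocytes had 588.1, 609.5 and 485.7, against 362.2, 430.1, 265.5 and 483.8 in control oligodendrocytes and 829.6, 608.7, 538.9 and 842.9 in OPCs. The CKO arrays lay just above the control arrays and overlapped the OPC arrays. Irf1 was 1.46-fold higher in CKO oligodendrocytes by the fitted value, a log2 difference of 0.55 ± 0.24 with adjusted p = 0.248. Under the replicate block, which leaves out control replicate 4, the highest control array, the Irf1 difference was 0.67 and passed (adjusted p = 0.0324). It missed the threshold under the other 14 of 15 alternatives, among them the 2 groups alone (adjusted p = 0.122). Its correlation over the 11 arrays was negative with each of the other 11 member probe sets, from -0.18 with Tap2 to -0.84 with H2-D1 1451784_x_at.

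**Figure D2:**
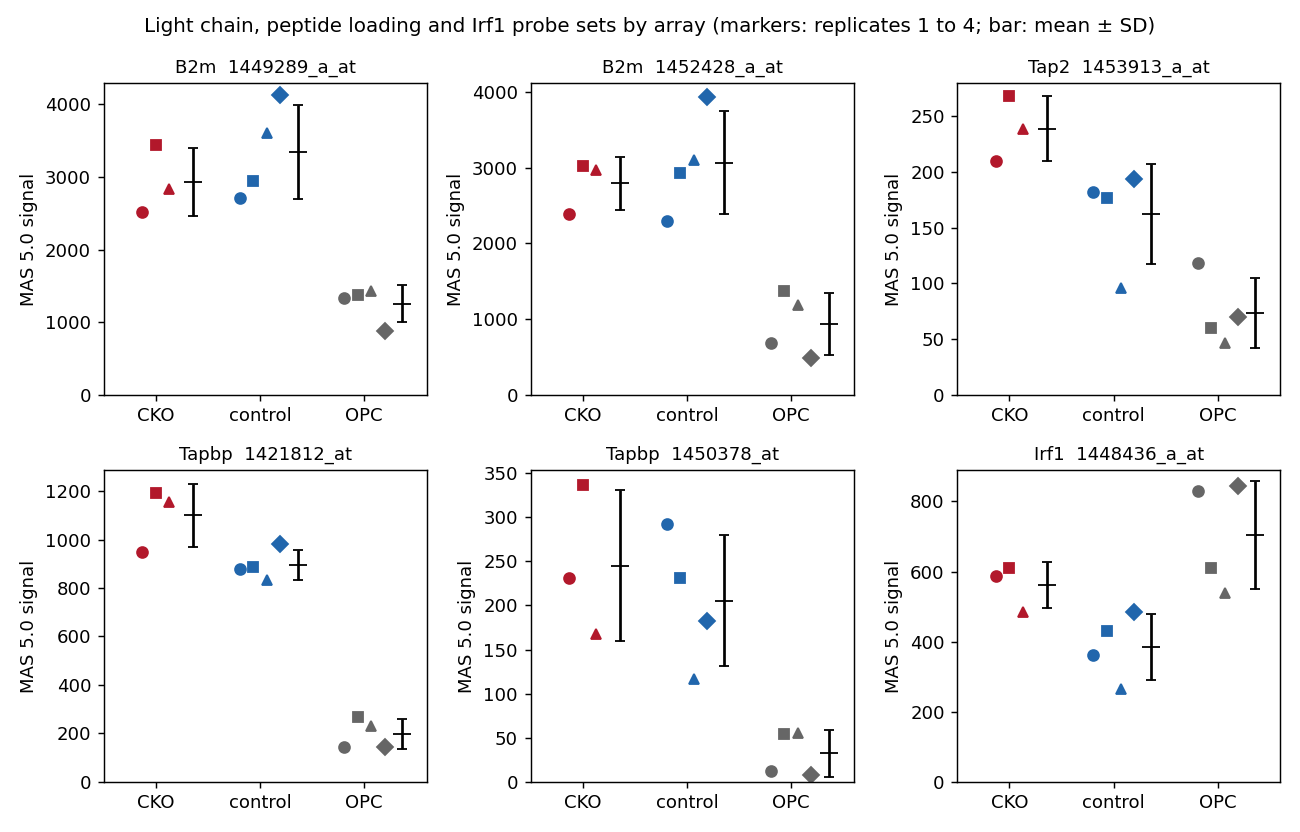
MAS 5.0 signal (linear axis from 0) of the B2m, Tap2, Tapbp and Irf1 probe sets by array, for CKO oligodendrocytes, control oligodendrocytes and OPCs, with mean ± SD bars. B2m and Tapbp lie above all OPC arrays in both oligodendrocyte groups, and Irf1 lies below all OPC arrays in control oligodendrocytes.

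Control oligodendrocytes were then set against OPCs, cells differentiated in culture against progenitors. There 11 member probe sets were higher and 1, Irf1, was lower, against 27.0% and 26.3% of all probe sets. The arrays did not overlap for 10 higher and 1 lower members, against 22.1% and 21.6%. The median difference of the 12 was 1.55 and that of all probe sets -0.01. Control oligodendrocytes had higher signals of every heavy chain probe set, from H2-K1 1451931_x_at, 1.80-fold (0.85 ± 0.21, adjusted p = 0.00617), to 1425336_x_at, 3.18-fold (1.67 ± 0.23, adjusted p = 0.000175). The H2-D1 probe sets 1425545_x_at, 1451784_x_at and 1451683_x_at rose 2.41-fold, 3.17-fold and 2.91-fold, with adjusted p from 0.000557 to 0.00196. The difference of 1451784_x_at was 1.66, and 1.20 without OPC replicates 1 and 4, which had its lowest signals. That of 1451683_x_at was 1.54, and 1.25 without the same arrays, its lowest too (adjusted p = 0.0197). H2-K1 1427746_x_at, under a signal of 100 on each OPC array, was at least 1.99-fold higher against a floor of 100 (adjusted p = 0.00275). It could hardly pass the filter without being higher in oligodendrocytes, so its rise is a description.

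B2m rose 2.65-fold and 3.45-fold in control oligodendrocytes against OPCs on its 2 probe sets (adjusted p = 0.000237 and 0.000591). Both probe sets were lowest on OPC replicates 1 and 4. Without them the difference was 1.22 on 1449289_a_at and 1.23 on 1452428_a_at, which had 1.79 with them. Tapbp on 1421812_at rose 4.45-fold, the largest fold of the members that were above the floor in both groups (2.15 ± 0.21, adjusted p = 1.93e-05), and its difference was 1.79 without OPC replicates 1 and 4, where it was lowest too. On 1450378_at Tapbp was at least 1.95-fold higher (adjusted p = 0.00119). The fitted difference of that probe set was 2.32, and 1.58 without OPC replicates 1 and 4, which had its lowest signals. That probe set, too, could hardly pass the filter without being higher in oligodendrocytes, so its rise is a description. Tap2 rose (adjusted p = 0.0140), by a fitted 2.01-fold over OPC signals under 100 on 3 of 4 arrays. Its difference was 1.01, and 1.33 without OPC replicates 1 and 4, which had its highest OPC signals. Irf1 fell 1.80-fold (-0.85 ± 0.22, adjusted p = 0.00779). OPC replicates 1 and 4 had the highest Irf1 signals, and without them the difference was -0.58 and missed the threshold (adjusted p = 0.0709).

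CKO oligodendrocytes were also set against OPCs, a comparison that shares its OPC arrays with the one above. Here 8 member probe sets were higher and 0 lower, against 26.4% and 24.1% of all probe sets in this limma fit, in which 9 members had an unadjusted p under 0.05. The arrays did not overlap for 7 higher members, against 25.6% of all probe sets. The median of the 12 was 1.39 and that of all probe sets 0.04. H2-K1 1425336_x_at rose 3.61-fold (1.85 ± 0.25, adjusted p = 0.000159) and H2-K1 1427746_x_at was at least 2.15-fold higher (adjusted p = 0.00314). B2m rose 2.34-fold and 3.19-fold (adjusted p = 0.000950 and 0.00150) and Tapbp on 1421812_at 5.43-fold (2.44 ± 0.23, adjusted p = 1.56e-05). Without OPC replicates 1 and 4 the difference of B2m was 1.04 on 1449289_a_at and 1.12 on 1452428_a_at, which had 1.67 with them, and that of Tapbp on 1421812_at was 2.07. Tapbp on 1450378_at was at least 2.36-fold higher, with a fitted difference of 2.58, and 1.83 without OPC replicates 1 and 4. Tap2 rose by a fitted 2.95-fold (adjusted p = 0.00217) over the same dim OPC signals, a difference of 1.56, and 1.88 without OPC replicates 1 and 4. Tap2 passed the filter on its CKO arrays only, which by itself placed them above the OPC arrays. H2-K1 1427746_x_at and Tapbp 1450378_at also reached a signal of 200 on no OPC array. These 3 are among the 8 called higher, and their differences are descriptions.

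Of the 4 heavy chain probe sets that were lower in CKO than in control oligodendrocytes, 1 passed against OPCs and 3 did not. H2-K1 1451931_x_at differed from OPCs by -0.29 ± 0.23 (interval -0.79 to 0.21, adjusted p = 0.302). H2-D1 1425545_x_at differed by 0.54 ± 0.23 (interval 0.04 to 1.04, adjusted p = 0.0670), with adjusted p = 0.0394 without OPC replicate 3. H2-D1 1451683_x_at differed by 0.36 ± 0.34 (interval -0.38 to 1.11, adjusted p = 0.387), and by 0.07 without OPC replicates 1 and 4 (adjusted p = 0.898). H2-D1 1451784_x_at rose 2.14-fold (1.10 ± 0.31, adjusted p = 0.0118), a call that ended without CKO replicate 2 (adjusted p = 0.0540) and without OPC replicates 1 and 4 (adjusted p = 0.0680). Irf1 differed by -0.30 ± 0.24 (interval -0.83 to 0.22, adjusted p = 0.310), and by -0.04 without OPC replicates 1 and 4 (adjusted p = 0.922).

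**Figure D3:**
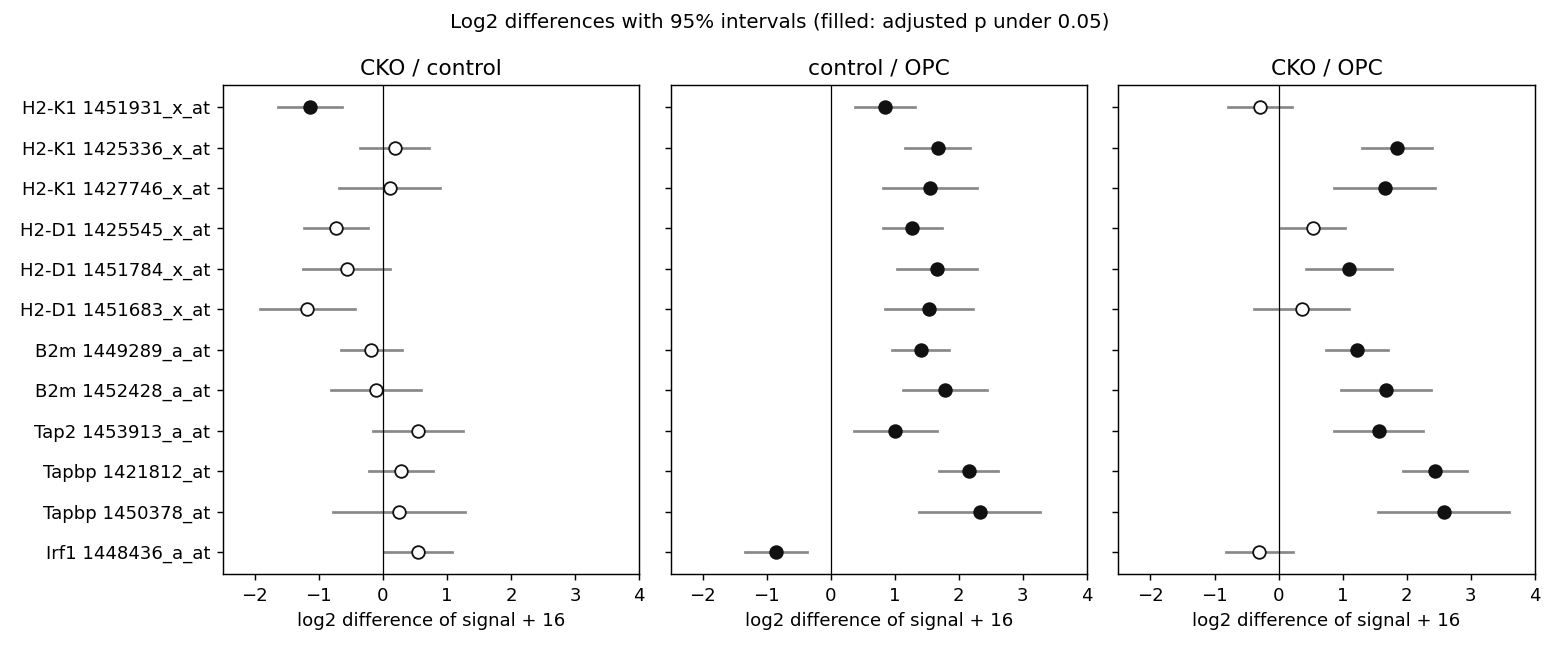
Fitted log2 differences of signal + 16 with 95% intervals for the 12 member probe sets in the 3 comparisons, with filled points for adjusted p under 0.05. In CKO against control oligodendrocytes 1 point is filled, H2-K1 1451931_x_at at -1.14, whereas all 12 are filled in control oligodendrocytes against OPCs, with Irf1 at -0.85 as the only one below 0.

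The order of levels over the groups differed between members. On 1451931_x_at and the 3 H2-D1 probe sets control oligodendrocytes stood highest, and the CKO and OPC arrays overlapped on all 4. On the other H2-K1, B2m and Tapbp probe sets both oligodendrocyte groups overlapped at the top and OPCs stood lowest. For Tap2 the mean signals were 239 ± 29 in CKO oligodendrocytes, 162 ± 45 in control oligodendrocytes and 73.7 ± 31.2 in OPCs (SD). For Irf1 they were 561 ± 66, 385 ± 94 and 705 ± 154 in the same order (SD), with CKO and OPC arrays overlapping.

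Other genes of the pathway were counted from lists, each gene by its brightest probe set. Over all 10069 genes 2.82% were called higher and 3.44% lower in CKO against control oligodendrocytes. The shares were 23.9% and 29.0% in control oligodendrocytes against OPCs, and 23.3% and 26.3% in CKO oligodendrocytes against OPCs. The medians of all genes were 0.03, -0.09 and -0.05 in these 3 comparisons. With the replicate number as a block, 12.4% of the genes were called higher and 8.94% lower in CKO against control oligodendrocytes. That limma fit leaves out the OPC arrays as well as control replicate 4, so the block is not its only change. Over all probe sets 1018 were called with all arrays, 2542 with the 2 groups alone and 3733 with the block. Of the 47 list genes measured 1 was called higher and 0 lower in the fit of all arrays without the block, against 8 higher and 1 lower with it. The fits are limma's over all probe sets, and the lists are described by counts with no test of their own.

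Of 19 other class I and class I-like chains 2 were measured. Hfe, whose product binds B2m and controls iron uptake, was at least 2.17-fold higher in control oligodendrocytes than in OPCs (adjusted p = 0.00197) and at least 3.11-fold higher in CKO oligodendrocytes than in OPCs (adjusted p = 0.000762). Cd1d1, which presents lipids to natural killer T cells, fell 2.17-fold in control oligodendrocytes (adjusted p = 0.00726) and 3.52-fold in CKO oligodendrocytes (adjusted p = 0.000753), both against OPCs. Neither passed between CKO and control oligodendrocytes. Hfe reached a signal of 200 on no OPC array and could hardly pass the filter without being higher in oligodendrocytes.

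Of 12 genes of peptide loading and processing in the endoplasmic reticulum 8 were measured, and 0 passed between CKO and control oligodendrocytes, where limma gave 1, Cd47, an unadjusted p under 0.05. Under the replicate block Cd47 passed as lower (-0.70, adjusted p = 0.0136). In control oligodendrocytes against OPCs 2 rose, Cd47 and Itm2b, which are not known for peptide loading, and 3 fell, with a median of -0.44, and in CKO oligodendrocytes against OPCs 0 rose and 4 fell, with a median of -0.42. Hspa5, the chaperone BiP, fell 1.63-fold in control oligodendrocytes (adjusted p = 0.00275) and 1.65-fold in CKO oligodendrocytes (adjusted p = 0.00379) against OPCs, and of its other probe sets 1 fell too (-1.18 and -1.59, adjusted p = 0.00197 and 0.000553) and 1 had differences of 0.14 and 0.43 that did not pass. Sec61b, a subunit of the channel through which new proteins enter the endoplasmic reticulum, fell 1.66-fold in control oligodendrocytes (adjusted p = 0.00111) and 1.41-fold in CKO oligodendrocytes (adjusted p = 0.0142) against OPCs, and the second call ended under 3 of 16 alternatives. Canx, the chaperone calnexin that holds new heavy chains, fell 1.52-fold in control oligodendrocytes against OPCs (adjusted p = 0.0113), a call that ended without OPC replicates 1 and 4 (adjusted p = 0.0954). Its other probe sets had differences of 1.09 and -0.67 that did not pass (adjusted p = 0.0836 and 0.118). Sec61a1, the pore of that channel, fell 1.74-fold in CKO oligodendrocytes against OPCs on its brightest probe set (adjusted p = 0.0309), a call that ended under 7 of 16 alternatives, while 2 of its other probe sets rose by 2.28 and 1.94 on the log2 scale. Cd47, a surface signal that restrains phagocytes, rose 1.89-fold in control oligodendrocytes against OPCs (adjusted p = 0.00378), with 0.56 (adjusted p = 0.0396) and 0.09 (adjusted p = 0.677) on its other probe sets. Itm2b, a membrane protein of the secretory pathway, rose 1.42-fold (adjusted p = 0.0139).

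Of 7 genes of the immunoproteasome and its activator 4 were measured and Psmb8 and Psmb9 were not. In CKO against control oligodendrocytes 0 passed, and limma gave 0 an unadjusted p under 0.05. Under the replicate block Psme1, a subunit of the proteasome activator PA28, passed as higher (0.66, adjusted p = 0.0337). Psmb10, an immunoproteasome subunit, rose 1.84-fold in control oligodendrocytes against OPCs (adjusted p = 0.0354) with overlapping arrays. That call ended under 10 of 17 alternatives, among them the fit without OPC replicates 1 and 4, where its difference was 0.28 against 0.88 with them. Of 11 class II genes 2 were measured. H2-Ab1, a class II beta chain, averaged 258 ± 50 in CKO oligodendrocytes (SD, n = 3) and 41.3 ± 23.2 in OPCs (SD, n = 4), and was at least 2.54-fold higher (adjusted p = 0.00260). Against control oligodendrocytes, at 81.8 ± 48.7 (SD, n = 4), its difference was 1.63 with adjusted p = 0.0915, and 1.91 with adjusted p = 0.0157 under the replicate block. H2-Ab1 reached a signal of 200 on no OPC array and was dim in control oligodendrocytes. It could hardly pass the filter without being higher in CKO oligodendrocytes, so its differences are descriptions.

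Of 14 interferon receptor and JAK-STAT genes 12 were measured. Jak2, a kinase of the interferon-gamma receptor, averaged 1858 ± 360 in CKO oligodendrocytes (SD, n = 3) and 881 ± 131 in control oligodendrocytes (SD, n = 4) and was the 1 gene of the lists that rose between them in the fit without the block, 2.08-fold (1.06 ± 0.24, adjusted p = 0.0245). Its other probe set gave 0.99 with adjusted p = 0.0215. Under the replicate block Ifngr1, a chain of the interferon-gamma receptor, and Irf9 passed as higher too (0.69 and 0.71, adjusted p = 0.0252 and 0.0354). The Jak2 call on its brightest probe set, in the fit without the block, ended without CKO replicate 1 or 3 and without control replicate 1, 2 or 3, with adjusted p up to 0.115. In control oligodendrocytes against OPCs Jak2 fell 2.84-fold (adjusted p = 0.000270), with -0.37 and adjusted p = 0.145 on the other probe set. Stat2, a component of the complex that type I interferon activates, rose by a fitted 3.25-fold in control oligodendrocytes and 3.49-fold in CKO oligodendrocytes against OPCs (adjusted p = 0.00176 and 0.00209), where it was under 100 on 3 of 4 arrays. The Stat2 differences of 1.70 and 1.80 were 1.11 and 1.21 without OPC replicates 1 and 4. Stat2 reached a signal of 200 on no OPC array and could hardly pass the filter without being higher in oligodendrocytes. Irf9, its DNA-binding partner, rose 1.77-fold in CKO oligodendrocytes against OPCs (adjusted p = 0.00885). Ifngr1, the ligand-binding chain of the interferon-gamma receptor, rose 1.54-fold there (adjusted p = 0.0342), a call that ended under 9 of 16 alternatives, with adjusted p up to 0.142. Ptpn2, a phosphatase that acts on JAK and STAT proteins, fell 1.99-fold in control oligodendrocytes against OPCs (adjusted p = 0.0123), and its difference was -0.44 with adjusted p = 0.0783 without OPC replicates 1 and 4. The other Ptpn2 probe set had a difference of -0.63 over all arrays (adjusted p = 0.0101).

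Of 27 interferon-stimulated genes 10 were measured, and 7 rose in control oligodendrocytes against OPCs, with a median of 1.46. In CKO oligodendrocytes against OPCs 7 rose as well, with a median of 1.93, and the OPC arrays are shared. Of the 10, 5 reached a signal of 200 on no OPC array and could hardly pass the filter without being higher in oligodendrocytes, and these 5 are among the 7 in both comparisons, so the counts and medians are descriptions. Between CKO and control oligodendrocytes 0 passed, with a median of 0.47, and limma gave 2 an unadjusted p under 0.05, both higher. Under the replicate block Gbp3, a guanylate-binding protein, and Irgm1, an immunity-related GTPase, passed as higher (0.85 and 0.99, adjusted p = 0.0286 and 0.0466), although their arrays overlapped. Ifitm3, a membrane protein that blocks virus entry, averaged 4866 ± 1366 in CKO oligodendrocytes (SD, n = 3), 3072 ± 988 in control oligodendrocytes (SD, n = 4) and 66.5 ± 29.4 in OPCs (SD, n = 4). It was higher in control oligodendrocytes and in CKO oligodendrocytes, both against OPCs (adjusted p = 5.78e-07 and 3.73e-07), and no fold is given because it was under a signal of 100 on 3 of 4 OPC arrays. Ifitm2, of the same family, averaged 2450 ± 619, 1256 ± 440 and 112 ± 66 in CKO oligodendrocytes, control oligodendrocytes and OPCs (SD). Eif2ak2, the RNA-sensing kinase PKR, was at least 2.55-fold higher in control oligodendrocytes and at least 3.70-fold higher in CKO oligodendrocytes than in OPCs (adjusted p = 9.23e-05 and 3.17e-05).

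**Figure D4:**
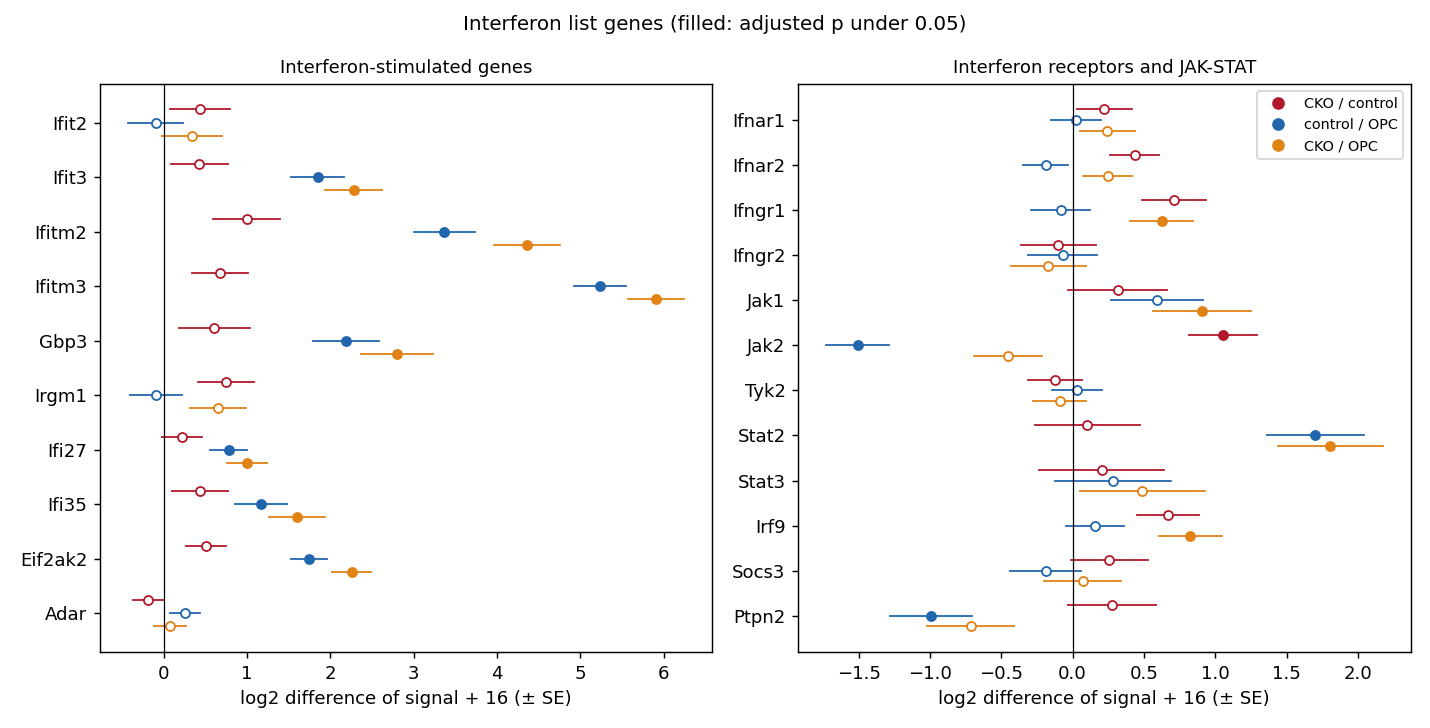
Fitted log2 differences of signal + 16 (± SE) of the measured interferon-stimulated genes (left) and interferon receptor and JAK-STAT genes (right) in the 3 comparisons, with filled points for adjusted p under 0.05. Ifitm3 and Ifitm2 lie farthest to the right against OPCs, over OPC signals under 100 on 3 and 2 of 4 arrays, and Jak2 is the only filled point for CKO against control oligodendrocytes, in a fit without the replicate block.

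Of 16 other regulators of class I 9 were measured, and Nlrc5, the class I transactivator, was not. In CKO against control oligodendrocytes 0 passed, with 1 at an unadjusted p under 0.05 in limma. Under the replicate block Rfx5 passed as higher (0.67, adjusted p = 0.0370). Rfx5, the DNA-binding subunit of the RFX complex on MHC promoters, fell 2.19-fold in control oligodendrocytes against OPCs (adjusted p = 0.00308). Rfxap, another subunit of RFX, fell 1.57-fold (adjusted p = 0.00389), with -0.38 and adjusted p = 0.0698 on its other probe set. Creb1, a factor that binds beside RFX, fell 2.04-fold (adjusted p = 0.000633), and of its other probe sets 1 fell and 1 had a difference of 0.29 that did not pass. In CKO oligodendrocytes against OPCs Creb1 fell 1.94-fold (adjusted p = 0.00167) and Rfxap 1.44-fold (adjusted p = 0.0185), while the other probe set of Rfxap had a difference of 0.07 (adjusted p = 0.761). Of the other probe sets of Creb1, 1 fell (-1.12, adjusted p = 0.00181) and 1 had a difference of 0.23 (adjusted p = 0.565). The Rfxap call ended under 4 of 16 alternatives, among them the fit without OPC replicates 1 and 4 (adjusted p = 0.0748). Irf2, a relative of Irf1, rose 2.31-fold in control oligodendrocytes against OPCs with overlapping arrays (adjusted p = 0.0306). That call ended under 7 of 16 alternatives, and without those 2 OPC arrays the adjusted p of Irf2 was 0.329.

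Markers of cells known for high class I or interferon responses were read on the same arrays. Of 13 microglial markers 0 passed the filter, 11 were under a signal of 100 on all arrays, and the highest reached 152.2. Their summed signal was 327.1 to 420.6 in CKO oligodendrocytes, 289.8 to 535.6 in control oligodendrocytes and 311.1 to 476.2 in OPCs, so it overlapped between all groups. Of 9 endothelial markers 8 had a probe set and 1, the transporter Slco1c1, passed. Their sum was 391.9 to 934.3 in CKO oligodendrocytes, 202.3 to 689.4 in control oligodendrocytes and 211.7 to 238.4 in OPCs, and 6 of them were under 100 on all arrays.

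Markers of astrocytes moved with the comparisons against OPCs. Of 10, 9 passed the filter, and their summed signal was 84416 to 91871 in CKO oligodendrocytes, 56522 to 77142 in control oligodendrocytes and 5627 to 10666 in OPCs, with no overlap between groups. Gfap, the astrocyte intermediate filament, averaged 16237 in CKO oligodendrocytes, 15744 in control oligodendrocytes and 80.7 in OPCs. Markers of smooth muscle, pericytes and fibroblasts, of which 3 of 10 passed, summed to 4752.7 to 8321.3 in CKO oligodendrocytes, 1006.3 to 2900.5 in control oligodendrocytes and 330.8 to 581.4 in OPCs, with no overlap. The sum of neuronal markers, of which 4 of 7 passed, was 1040.8 to 1374.4 in CKO oligodendrocytes, 1733.9 to 2561.9 in control oligodendrocytes and 1327.4 to 1575.7 in OPCs. The summed CKO signals lay below the control ones, although Stmn2 of that list had a higher mean in CKO than in control oligodendrocytes, 248 against 226. The summed control signals lay above the OPC ones. Syt1 and Snap25 of that list went the other way, with lower means in control oligodendrocytes than in OPCs, 61 against 275 and 44 against 172. Of 9 markers of the oligodendrocyte lineage 8 had a probe set and passed, with sums of 65510 to 75485 in CKO oligodendrocytes, 71796 to 85952 in control oligodendrocytes and 65746 to 118494 in OPCs. That sum pools markers that went opposite ways between control oligodendrocytes and OPCs. Mog averaged 46.4 in CKO oligodendrocytes, 2180 in control oligodendrocytes and 41.1 in OPCs, and Pdgfra 1538, 2683 and 13967 in the same order. The part of these cell types in the differences of the class I and interferon genes was not tested.

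The genes whose log2 signal over the 11 arrays was most like a member's were looked up for 3 members, each on its probe set of greatest average log2 signal, among 10063 others. By that measure 1451931_x_at led narrowly for H2-K1, although 1425336_x_at had the higher mean signal. For H2-K1 on 1451931_x_at they were Rcbtb1 (r = 0.938), Fntb (r = 0.933) and Apbb2 (r = 0.924). Apbb2 averaged 429.9 in CKO oligodendrocytes, 2243 in control oligodendrocytes and 761.7 in OPCs. For B2m on 1449289_a_at they were Slc22a21 (r = 0.974), Inpp5a (r = 0.968) and Ctso (r = 0.968). For Irf1 they were Ankrd50 (r = 0.974), Acvr2a (r = 0.969) and Farp1 (r = 0.966), and Farp1 averaged 1752 in CKO oligodendrocytes, 874.8 in control oligodendrocytes and 2574 in OPCs. None of these genes is in the lists above, and the correlations describe 3 groups of arrays.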

How the data were processed

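Values were MAS 5.0 signals, an intensity per probe set on a linear scale deposited by the authors. Per the submitters' processing notes they came from GCOS 1.3 with the MAS5 algorithm, and each array was scaled to a common target. They were not normalized again. Probe sets were named from the platform annotation, in which 34958 of 45101 carry 1 gene, and 34754 were matched to current symbols by Entrez identifier. The 64 control probe sets were left out, and 18568 probe sets with a signal of at least 200 on at least 3 of 11 arrays were kept.

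Log2(signal + 16) was fitted with a mean per group over all 11 arrays in limma 3.58.1 (R 4.3.3; lmFit, eBayes with trend), with Benjamini-Hochberg adjustment over all kept probe sets and a threshold of 0.05. Where every array of the lower group was under 100, a fold is a bound against a floor of 100, from group means of log2 values. Probe sets of 1 gene were compared by exact permutation of within-array differences. Motifs were searched with Python 3.11.15. The number of arrays limits the precision.

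Replicate numbers are shared between groups in the labels. Deviations of CKO and control arrays with the same number correlated at 0.228, 0.238 and 0.238, each above 0.1, so these numbers were taken to pair them, although CKO replicate 3 correlated more with control replicate 4 (0.362) and differently numbered arrays 1 and 2 also correlated (0.214 and 0.166), and blocked values are given where they change a call. Groups were taken from sample titles. Alternatives were other filters, pseudocounts of 1 and 64, quantile normalization, fits of 2 groups, the replicate block, no variance trend and leaving out each array. The replicate block was fitted on the same-numbered arrays of the 2 groups compared, without the remaining group. Leaving out OPC replicates 1 and 4, and the replicate block for list genes, were added after seeing the data.

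Genes named were all members, up to 3 genes per list and direction with the smallest adjusted p, the 3 genes most like H2-K1, B2m and Irf1, Myrf, and the brightest markers. Not every gene the rule selects is printed, and Gfap, Slco1c1, Stmn2, Syt1, Snap25, Mog and Pdgfra were picked for naming with their values in view. The members and lists were chosen with earlier results of these data known.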

Additional observations from a re-analysis of the deposited data

Results flagged for a closer look

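Of 24 groups of 4 arrays tested with Dixon's criterion over the 12 member probe sets, 2 held an array that stood apart, and chance flags about 1 in 20. For B2m on 1449289_a_at OPC replicate 4 was lowest with 883.9, against 1336.2 to 1428.4 on the other OPC arrays. That array also had the lowest 5′ to 3′ Gapdh ratio, 0.120. For Tap2 on 1453913_a_at control replicate 3 was lowest with 95.8, against 176.9 to 193.7 on the other control arrays. The causes were not tested.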

How the results depend on the processing

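Of 177 combinations of a member and an alternative in CKO against control oligodendrocytes 168 kept their side of the threshold, as did 200 of 201 in control oligodendrocytes against OPCs and 185 of 189 in CKO oligodendrocytes against OPCs. None of the 3 comparisons had a called member that reversed. In CKO against control oligodendrocytes 1018 probe sets and 1 member were called. With the 2 groups alone these were 2542 and 3, with the replicate block 3733 and 4, and with quantile normalization 2 members were called. The block also leaves out the OPC arrays and control replicate 4. Leaving out each array gave 512 to 839 probe sets and 0 to 2 members, with 0 without CKO replicate 1 or 3. In CKO oligodendrocytes against OPCs 9388 probe sets and 8 members were called. The replicate block gave 5498 probe sets, and the filter at a signal of 400 left 5 members called of 9 tested. Counts in control oligodendrocytes against OPCs, 9899 probe sets and 12 members, stayed within 1.5 times under each alternative. For the comparisons with OPCs, same-numbered arrays correlated from -0.143 to 0.176 and from -0.104 to 0.102, so they share only a number there. That block ended the call of H2-K1 1427746_x_at in CKO oligodendrocytes against OPCs (adjusted p = 0.0547) and that of Irf9 (adjusted p = 0.101). In CKO against control oligodendrocytes the block gave 8 higher and 1 lower of 47 list genes, against 1 higher and 0 lower in the fit of all arrays. The replicate block changed no other member call than those named. The causes of these changes were not tested. With 3 or 4 arrays per group the intervals of the heavy chain differences span about 1 log2 unit or more. Probe sets that did not reach a signal of 200 on at least 3 arrays were too dim to compare. Some compared ones were under 200 throughout a group, such as Tap2 in control oligodendrocytes and in OPCs.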
